A study of Mus musculus with 62 samples.

Results

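Complement is a cascade of secreted proteins that tags cells and debris for removal and recruits immune cells. In the classical pathway the recognition molecule C1q, built from A, B and C chains, binds its target and activates the proteases C1r and C1s, which cleave C4 and C2 to form an enzyme that cleaves C3. Factor B supplies the protease of the alternative pathway, which amplifies C3 cleavage, and C1 inhibitor blocks C1r and C1s. The liver makes most of the plasma proteins, whereas C1q is made mainly by macrophages and other myeloid cells.

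With earlier results of these data known, the 9 genes described here were picked by name as complement components and regulators. They came from the 47643 gene symbols of the table, by no threshold on their values. They are the C1q chain genes C1qa, C1qb and C1qc, the C1r and C1s genes C1ra and C1s1, C3, the C4 gene C4b, the factor B gene Cfb and the C1 inhibitor gene Serping1. They were measured in gastrocnemius, a calf muscle, of female mice injected at 2 months of age with melanoma cells that cause cachexia (CAC), with melanoma cells that do not (NCAC), or given a mock injection (Con). Muscle was taken at 2, 4, 6 and 8 weeks, in 5 libraries per group and week, except for 7 in CAC at 8 weeks, which makes 62 libraries, and the labels call them biological replicates. The series design describes NCI Ath/nude mice, an athymic strain, and the sample labels give the strain C57BL6/J, so the host of the tumour cells is not settled here. The labels do not name the melanoma lines or give tumour sizes. Levels are in TPM, the share of a gene's transcripts among all transcripts of a library, which is corrected for transcript length. Differences are of mean log2(TPM + 1), tested with limma across 12364 genes, and a gene is called at an adjusted p under 0.05.

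All 9 genes passed the filter on low values, which asked for 1 TPM in at least 5 libraries, and none was at 0 in any library. The lowest value was 1.06 TPM for Cfb, an estimated 58 reads, and the highest was 320 TPM, reached by both C3 and Serping1. Depth, estimated from the values, ran from 39.58 M to 48.35 M reads. Markers of muscle fibres held 100505 to 165356 summed TPM in every library, as the tissue label says. The share of TPM from genes of mitochondrial DNA was 19.7% to 34.3% in CAC, 26.8% to 42.3% in NCAC and 28.6% to 36.5% in Con libraries, and most tested genes were called higher in CAC at 6 and 8 weeks, so counts are read against the share of all tested genes called the same way. In bulk muscle, more cells of a type and more RNA per cell cannot be told apart.

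In CAC muscle the complement genes stood together above both other groups. Against Con, 2 of the 9 genes were higher at 2 weeks, C4b and Serping1, and all 9 at 4, 6 and 8 weeks; none was lower. Of all tested genes, 0.267% were called higher at 2 weeks, 23% at 4 weeks, 51.8% at 6 weeks and 65.3% at 8 weeks, and 5.55% were called lower at 8 weeks. The median log2 difference of the 9 genes was 1.18 at 2 weeks, 1.67 at 4 weeks, 1.74 at 6 weeks and 1.92 at 8 weeks, against 0.088, 0.17, 0.28 and 0.36 over all tested genes. With so many genes called at 6 and 8 weeks, the count of 9 says little by itself there. The differences were larger than that of the median gene, but the genes were chosen with earlier results of these data known. The gap is therefore a description and no separate support.

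The same comparison against the other tumour group gave 3 of 9 genes higher at 2 weeks, C3, C4b and Serping1, and 9 of 9 at 4, 6 and 8 weeks. Of all tested genes, 1.16%, 18.1%, 64.1% and 67.5% were called higher in CAC than in NCAC at 2, 4, 6 and 8 weeks. The median log2 difference of the 9 genes was 1.09, 1.18, 1.99 and 2.18 in that order of weeks, against 0.12, 0.17, 0.37 and 0.37 over all tested genes. The comparisons with NCAC and with Con share the CAC libraries.

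The share of genes called depended on the scale. When the libraries were rescaled by the median ratio of their genes, the median gene moved down by 0.08, 0.16, 0.27 and 0.34 on the log2 scale between CAC and Con at 2, 4, 6 and 8 weeks. Against Con, 919 genes were then higher and 964 lower at 4 weeks (2840 and 294 before), 1786 higher and 2129 lower at 6 weeks (6400 and 669 before), and 2826 higher and 2759 lower at 8 weeks (8069 and 686 before). At 2 weeks 28 were higher and 8 lower (33 and 2 before). Between CAC and NCAC, 44 were higher and 12 lower at 2 weeks (143 and 2 before), 367 and 633 at 4 weeks (2238 and 197 before), 2437 and 2688 at 6 weeks (7926 and 574 before), and 2795 and 2765 at 8 weeks (8346 and 593 before). The share called higher against Con became 0.226%, 7.43%, 14.4% and 22.9% at the 4 weeks, and 1, 8, 9 and 9 of the 9 complement genes were called, all higher. After rescaling the log2 differences of the 9 genes at 8 weeks lay between 0.99 for C1s1 and 3.01 for C4b. Between CAC and NCAC the share called higher became 0.356%, 2.97%, 19.7% and 22.6%, and 2, 3, 9 and 9 of the 9 genes were called. The counts at 6 and 8 weeks were thus 9 of 9 on both scales, while the count against NCAC at 4 weeks was C3, C4b and Serping1 after rescaling. That count was also 4 when genes of mitochondrial DNA were left out, 2 without CAC replicate 2 of 4 weeks and 3 without NCAC replicate 3 of 4 weeks. The calls over all tested genes fell as well, to 274 without that CAC library and 897 without that NCAC library, in either direction. With all libraries they were 2238 higher and 197 lower.

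**Figure D1:**
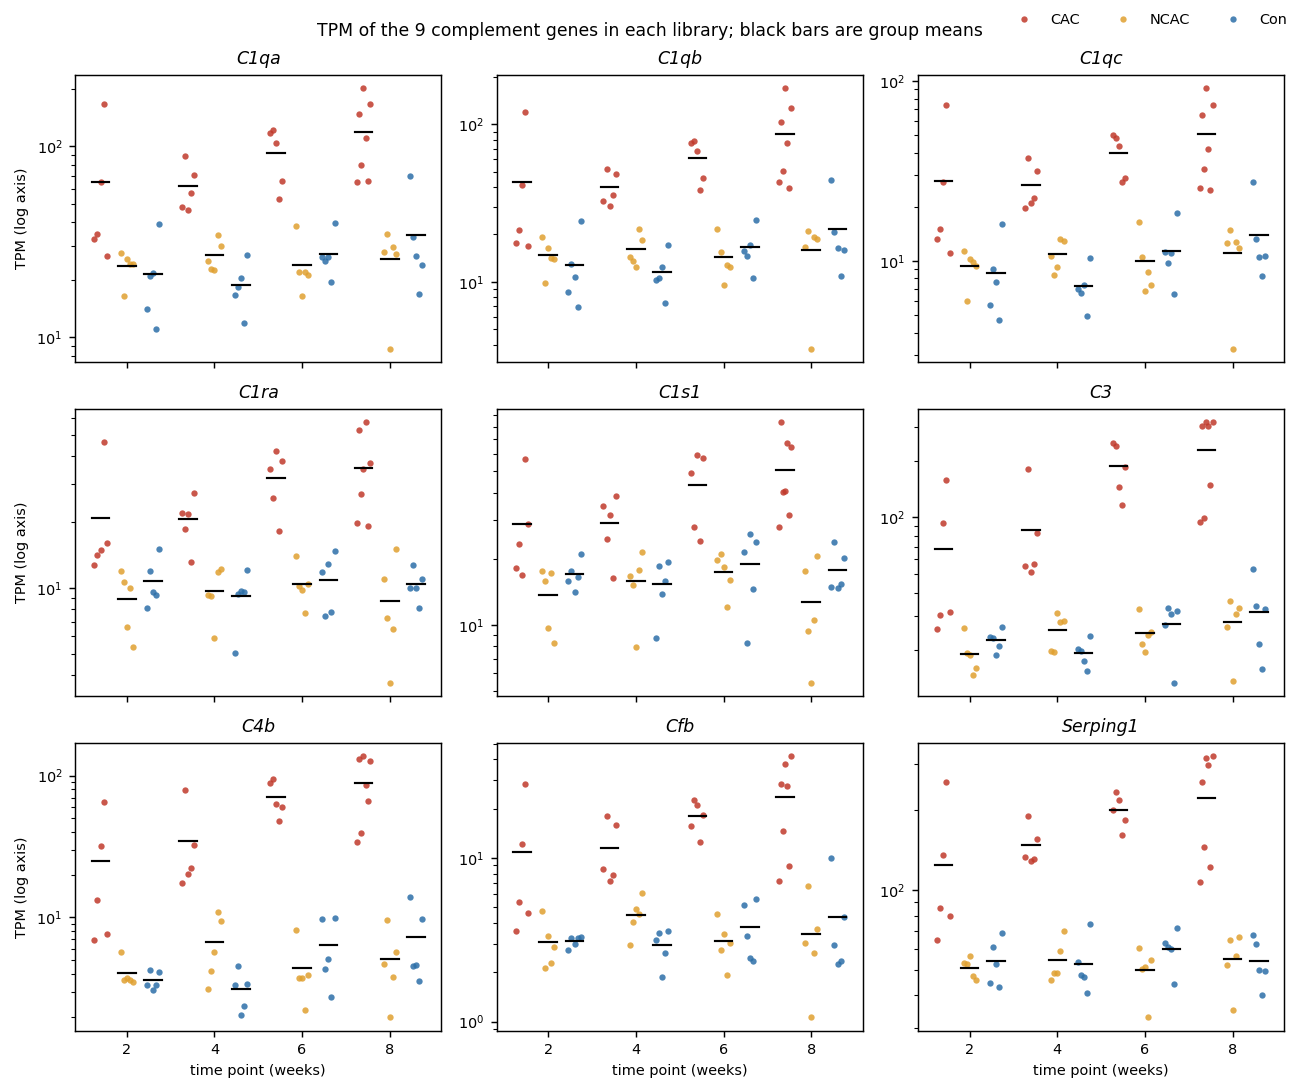
TPM of each of the 9 complement genes (log axis) in every library at 2, 4, 6 and 8 weeks, with CAC in red, NCAC in yellow and Con in blue and a black bar at each group mean. From 4 weeks on the CAC points lie above nearly all others, and at 2 weeks 1 CAC library, with 167 TPM of C1qa, stands far above the rest.

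The C1q chains are encoded side by side, C1qa at chr4:136895917-136898803, C1qb at chr4:136880129-136886187 and C1qc at chr4:136889804-136893065, all on the minus strand of build mm10. At 4 weeks C1qa had 48.4, 89.0, 46.7, 56.7 and 70.9 TPM in CAC, 25.0, 22.7, 22.6, 34.3 and 30.1 TPM in NCAC and 16.6, 18.4, 20.4, 11.9 and 27.1 TPM in Con. No CAC library overlapped a library of the other groups at that week. At 8 weeks C1qa in CAC had a lowest value of 65.2, a median of 110 and a highest value of 203 TPM, against 27.9, 34.7, 8.72, 29.8 and 27.4 TPM in NCAC and 70.2, 33.4, 26.6, 16.8 and 24.0 TPM in Con. The CAC range lay wholly above NCAC, but Con replicate 1 reached above 2 of the 7 CAC libraries; its macrophage markers summed to 178 TPM, the highest of its group.

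The C1qa log2 difference between CAC and Con was 1.67 at 4 weeks (SE 0.363, adjusted p = 0.0011), 1.68 at 6 weeks (adjusted p = 0.00023) and 1.82 at 8 weeks (adjusted p = 9.16e-06). At 2 weeks it was 1.33, with an adjusted p of 0.0808, and was not called. C1qb and C1qc followed closely: at 8 weeks C1qb averaged 87.0 ± 49.0 TPM in CAC (SD, n = 7), 15.9 ± 6.95 TPM in NCAC and 21.7 ± 13.2 TPM in Con (SD, n = 5 each). C1qc averaged 50.7 ± 26.3 TPM in CAC, 11.1 ± 4.51 TPM in NCAC and 14.0 ± 7.68 TPM in Con at the same week. Their log2 differences from Con were 1.92 for C1qb and 1.74 for C1qc.

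The proportions of the 3 chains varied less than their levels. C1qa was 1.61 ± 0.163 times C1qb and 2.44 ± 0.203 times C1qc in TPM (SD over the 62 libraries), with ranges of 1.19 to 2.32 and 1.92 to 2.95. The chain genes share no window of 50 bases of their transcripts. The 12 group means of the C1q genes were most like those of Fcgr3, Alox5ap, Csf1r and Pirb, with Pearson r of 0.993 to 0.995; such values describe 12 means that share one contrast, CAC against the others.

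Of the 250 bases before the start of C1qb, the part nearest the start holds a match to GAGGAA, the core bound by PU.1, a transcription factor of macrophages. The window is chr4:136886201-136886450 on the minus strand (RefSeq, GRCm38.p6), printed 5′ to 3′ with the match in capitals.
C1qb: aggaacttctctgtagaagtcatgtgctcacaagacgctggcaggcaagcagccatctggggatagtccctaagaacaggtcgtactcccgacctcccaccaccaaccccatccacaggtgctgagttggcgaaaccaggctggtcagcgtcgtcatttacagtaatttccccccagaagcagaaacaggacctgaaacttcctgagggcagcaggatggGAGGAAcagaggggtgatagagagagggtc
The first base of the match is 30 bases before the start, on the strand of the gene. C1qc holds a match to the same letters 193 bases before its start, on the other strand. Of 32851 RefSeq promoter windows of this length, 23.3% hold GAGGAA on either strand, so a match in both genes is a description of these sequences and no sign of binding.

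The macrophage markers of the muscle stood higher beside the C1q genes. Of 12 listed markers, among them the complement receptor gene Vsig4, 11 were tested, and against Con 0, 8, 9 and 11 of them were higher in CAC at 2, 4, 6 and 8 weeks, beside 0.267%, 23%, 51.8% and 65.3% of all tested genes. Against NCAC 0, 2, 10 and 11 of the 11 were higher, beside 1.16%, 18.1%, 64.1% and 67.5%. Their median log2 difference from Con at 8 weeks was 1.13, and 8 of the 11 were called higher after rescaling, beside 22.9% of all tested genes. Cd163, a scavenger receptor of resident macrophages, had a log2 difference of 2.34 (adjusted p = 7.58e-08), and Adgre1, which encodes F4/80, one of 0.75 (adjusted p = 0.00615). The summed TPM of the list was 153 to 417 in CAC, 29.7 to 109 in NCAC and 53.1 to 178 in Con at 8 weeks. In the same libraries the ratio of summed C1q chains to summed markers had a median of 0.991 in CAC (range 0.841 to 1.26), 0.658 in NCAC (0.529 to 0.727) and 0.677 in Con (0.585 to 0.800). At 8 weeks C1q thus stood higher per unit of these markers in every CAC library than in any NCAC or Con library. The CAC ranges overlapped those of both other groups at 2 weeks, of only NCAC at 4 weeks and of only Con at 6 weeks. They were 0.572 to 1.01 in CAC, 0.618 to 0.841 in NCAC and 0.401 to 0.770 in Con at 2 weeks, 0.845 to 1.21 in CAC, 0.334 to 0.895 in NCAC and 0.520 to 0.740 in Con at 4 weeks, and 0.726 to 1.17 in CAC, 0.547 to 0.720 in NCAC and 0.592 to 0.891 in Con at 6 weeks. The part of macrophage number in the C1q values was not tested.

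**Figure D2:**
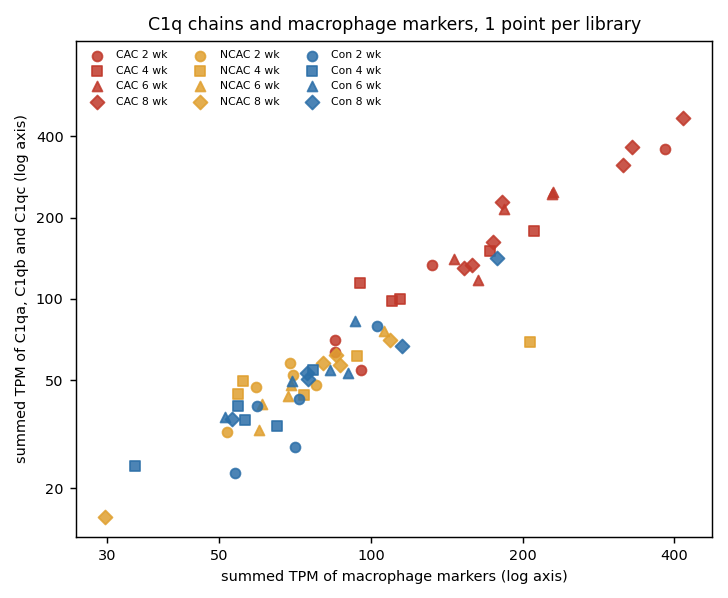
Summed TPM of C1qa, C1qb and C1qc against summed TPM of the macrophage markers in each of the 62 libraries, both on log axes, with colour for the group and symbol for the week. Both sums are highest in CAC libraries, up to 466 TPM of C1q chains, and NCAC replicate 3 of 8 weeks, with 15.7 TPM of C1q and 29.7 TPM of markers, is the lowest in both.

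C1ra and C1s1 encode the proteases that C1q activates, and of the 9 genes they differed least between CAC and Con. They lie near each other on chromosome 6, C1ra at chr6:124512405-124523443 on the plus strand and C1s1 at chr6:124530345-124542359 on the minus strand. C1ra averaged 35.5 ± 15.1 TPM in CAC (SD, n = 7), 8.70 ± 4.44 TPM in NCAC and 10.4 ± 1.69 TPM in Con (SD, n = 5 each) at 8 weeks. Its log2 difference from Con was 1.10 at 4 weeks, 1.45 at 6 weeks and 1.59 at 8 weeks (SE 0.270, adjusted p = 2.59e-06). C1s1 had a lowest value of 28.0, a median of 40.8 and a highest value of 84.0 TPM in CAC at 8 weeks, against 17.5, 9.35, 5.42, 10.5 and 20.5 TPM in NCAC and 14.9, 23.8, 14.7, 15.4 and 20.1 TPM in Con. These ranges did not overlap, although 1 CAC library of 4 weeks and 1 of 6 weeks fell within the Con range for C1s1.

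The C1s1 log2 difference from Con, 1.39 at 8 weeks (SE 0.292, adjusted p = 5.72e-05), was the smallest of the 9 genes at that week. At 4 weeks it was 0.88 against Con (adjusted p = 0.0352) and 0.85 against NCAC (adjusted p = 0.0487), both close to the threshold, and neither was called after rescaling, when they were 0.69 and 0.65. Mice carry a second copy of each of these genes: 48.0% of the 50-base windows of C1ra transcripts also occur in C1rb and 24.3% of those of C1s1 in C1s2, and an antisense gene covers 18.4% of the C1s1 exon bases. The sources used here do not state how such reads were counted, and the values of both genes are uncertain to that extent. C1rb itself had 1.91 to 38.5 TPM in CAC, 1.19 to 7.02 TPM in NCAC and 0.980 to 11.1 TPM in Con at 8 weeks.

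**Figure D3:**
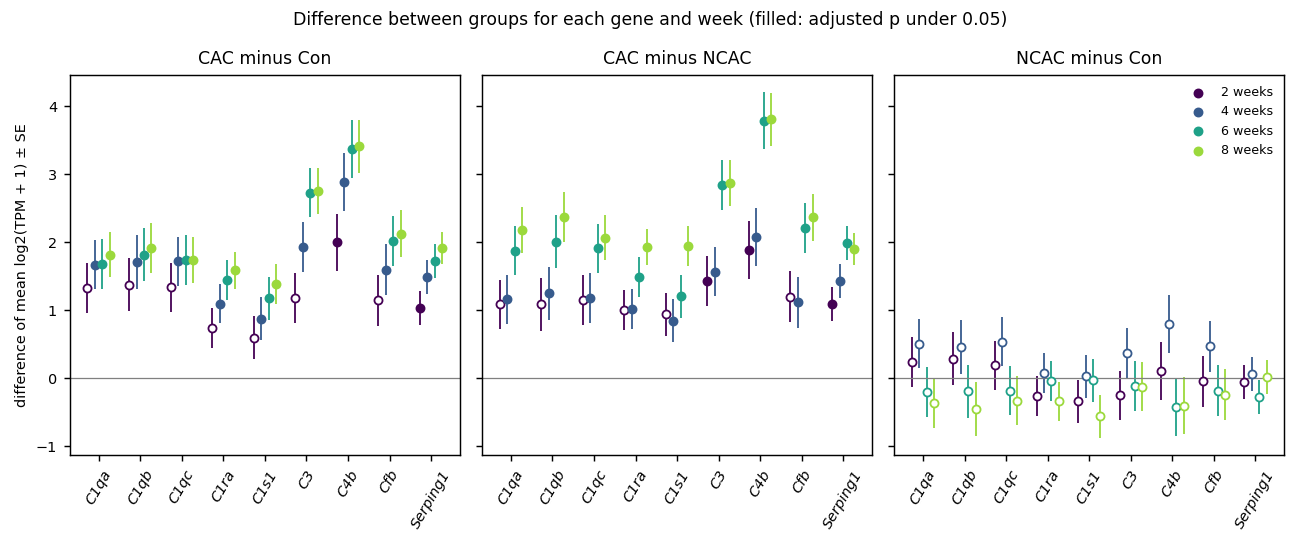
Difference of mean log2(TPM + 1) for each gene and week (points, with SE bars), CAC minus Con on the left, CAC minus NCAC in the middle and NCAC minus Con on the right; filled points have an adjusted p under 0.05. C4b and C3 reach the highest values, 3.41 and 2.75 against Con at 8 weeks, and no point of NCAC minus Con is filled.

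C3, on which all pathways converge, had the second largest difference between CAC and Con at 8 weeks. It lies at chr17:57203970-57228136 on the minus strand. At 2 weeks C3 had 25.6, 30.4, 93.0, 158 and 31.6 TPM in CAC, 26.0, 19.3, 18.8, 14.7 and 16.0 TPM in NCAC and 23.2, 23.1, 18.7, 21.0 and 26.3 TPM in Con. Of the CAC libraries, 3 lay near the others and 2 far above them. At 6 weeks the values were 247, 239, 145, 116 and 185 TPM in CAC, 32.9, 21.4, 19.4, 24.0 and 24.9 TPM in NCAC and 26.9, 33.4, 30.9, 13.3 and 32.1 TPM in Con. The lowest CAC library was then far above the highest of the other groups. The log2 difference from Con was 1.18 at 2 weeks (adjusted p = 0.130), 1.93 at 4 weeks, 2.73 at 6 weeks and 2.75 at 8 weeks (SE 0.337, adjusted p = 6.1e-09). Against NCAC it was 1.43 at 2 weeks (adjusted p = 0.0347) and 2.87 at 8 weeks (adjusted p = 2.31e-09).

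The promoter of C3 is shown because it holds 3 matches to the C/EBP pattern TTNNGNAA, which is named for factors of the acute-phase response. The window is chr17:57228137-57228386 on the minus strand (RefSeq, GRCm38.p6), and capitals mark the matches, whose first bases are 70, 58 and 45 bases before the start.
C3: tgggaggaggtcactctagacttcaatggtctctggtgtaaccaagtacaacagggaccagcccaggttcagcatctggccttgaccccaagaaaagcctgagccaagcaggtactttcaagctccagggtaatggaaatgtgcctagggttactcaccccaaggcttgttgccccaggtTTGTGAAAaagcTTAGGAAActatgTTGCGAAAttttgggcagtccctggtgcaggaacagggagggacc
C1s1: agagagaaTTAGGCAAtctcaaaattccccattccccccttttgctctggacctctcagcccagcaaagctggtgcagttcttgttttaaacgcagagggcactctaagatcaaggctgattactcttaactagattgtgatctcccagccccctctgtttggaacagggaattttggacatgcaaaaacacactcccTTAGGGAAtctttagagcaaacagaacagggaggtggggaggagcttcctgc
Of 2 listed starts of C1s1, 1 is shown; its window, chr6:124542360-124542609 on the minus strand, is given for comparison and holds 2 matches, 242 and 52 bases before the start. At least 1 match on either strand occurs in 36.8% of the 32851 windows, and the share with 3 was not counted. The window of C1ra also holds matches, 72 and 29 bases before the RefSeq start, and that of C1qc 81 bases before it. In the window of the other C1s1 start the only match is the same TTAGGGAA site, 90 bases before that start. The windows of C1qb, C1qc, C1ra, C1s1 and C3 held no match to the STAT pattern TTCNNNGAA, to GAAANNGAA of the interferon-stimulated response element, to the NF-kB pattern GGGANNTTC or to ACANNNTGT of the glucocorticoid response element, which 7.02%, 7.13%, 3.23% and 5.84% of all windows hold. That says only that these letters are not there. The starts are those of RefSeq. By the gene positions given here, the windows of C1ra (chr6:124512371-124512620) and C1qc (chr4:136892915-136893164) reach into the gene. So does that of the C1s1 start not shown (chr6:124542322-124542571). C1qa, C4b, Cfb and Serping1 were not matched.

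C4b encodes the C4 protein that C1s cleaves, and it had the largest difference of the 9 genes from Con and from NCAC at every week. It lies at chr17:34728380-34743882 on the minus strand. At 2 weeks C4b had 6.95, 13.3, 31.8, 64.8 and 7.59 TPM in CAC, 5.73, 3.65, 3.74, 3.61 and 3.48 TPM in NCAC and 3.35, 4.27, 3.08, 3.36 and 4.11 TPM in Con. Every CAC library was above every other library of that week, which held for 2 of the 9 genes against Con, C4b and Cfb, and for 5.01% of all tested genes. The log2 difference was 2.00 against Con (SE 0.423, adjusted p = 0.0123) and 1.89 against NCAC (adjusted p = 0.0136). At 8 weeks C4b had a lowest value of 33.9, a median of 85.3 and a highest value of 137 TPM in CAC, against 4.66, 9.52, 1.97, 3.80 and 5.69 TPM in NCAC and 13.9, 4.55, 4.62, 3.55 and 9.77 TPM in Con. The fold on TPM + 1 was 10.6 against Con and 14.0 against NCAC.

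Ratios within a library do not depend on the scale of that library. C4b was higher in CAC relative to C1qa and C3, which on average follows from its larger difference and is no separate result. Its TPM was 0.765 times that of C1qa in CAC at 8 weeks (median, range 0.496 to 1.00), against 0.208 in NCAC (0.128 to 0.275) and 0.197 in Con (0.136 to 0.408). Relative to C3 it was 0.398 in CAC (0.279 to 0.446), against 0.171 in NCAC (0.123 to 0.264) and 0.225 in Con (0.134 to 0.298). The CAC range of the first ratio lay above both other groups, and the range of the second overlapped that of Con. C3 relative to C1qa had a median of 1.92 in CAC, 1.04 in NCAC and 0.940 in Con at 8 weeks. At 2 weeks that ratio was 0.948 in CAC, 0.730 in NCAC and 1.11 in Con, with overlapping ranges.

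**Figure D4:**
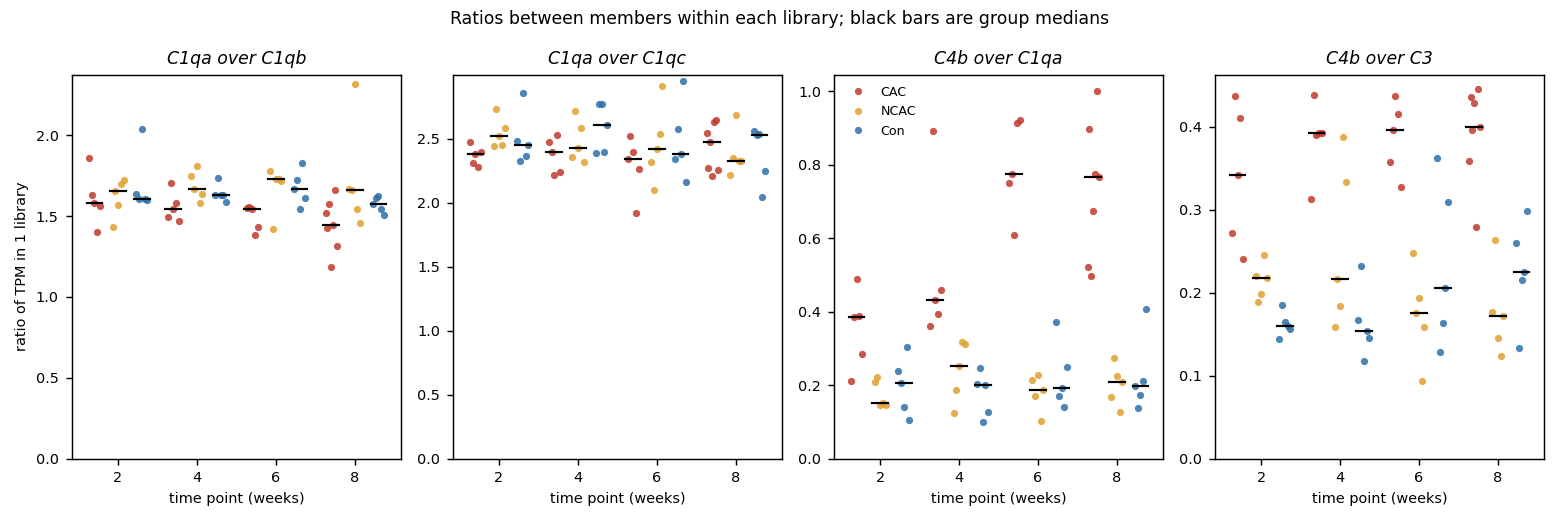
Ratios of TPM within each library by week, with CAC in red, NCAC in yellow and Con in blue and a black bar at each group median. C1qa over C1qb has group medians from 1.45 in CAC at 8 weeks to 1.72 in NCAC at 6 weeks, and C1qa over C1qc from 2.33 to 2.60. C4b over C1qa reaches medians of 0.773 at 6 weeks and 0.765 at 8 weeks in CAC.

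The sister gene C4a, at chr17:34809092-34823464, which in mice encodes the sex-limited protein, was low and was higher in CAC too. It had 1.07 to 6.05 TPM in CAC, 0.0501 to 0.410 TPM in NCAC and 0.194 to 0.501 TPM in Con at 8 weeks. Its log2 difference from Con was 1.61 (SE 0.198, adjusted p = 6.51e-09). Since 35.2% of the 50-base windows of C4b also occur in C4a, the values of C4a may include reads of C4b, and the 2 genes are not separate evidence.

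Cfb, the protease gene of the alternative pathway, lies near C4b at chr17:34856374-34862518 on the minus strand. At 4 weeks it had 8.51, 18.1, 7.24, 7.92 and 15.8 TPM in CAC, 2.92, 4.05, 4.85, 4.52 and 6.12 TPM in NCAC and 3.16, 3.46, 1.88, 2.62 and 3.60 TPM in Con, with no overlap. At 8 weeks the lowest, median and highest values were 7.26, 27.6 and 41.8 TPM in CAC, against 3.03, 6.70, 1.06, 2.63 and 3.69 TPM in NCAC and 9.95, 2.95, 2.24, 2.34 and 4.36 TPM in Con. Con replicate 1 lay above 2 CAC libraries. The log2 difference from Con was 1.60 at 4 weeks and 2.13 at 8 weeks (SE 0.345, adjusted p = 1.15e-06). Another annotated gene, Gm20547, shares 79.5% of the Cfb exon bases on the same strand, so the division of reads between the 2 is uncertain.

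Serping1, which encodes C1 inhibitor, was the most abundant of the 9 genes in NCAC and Con. It lies at chr2:84765387-84775444 on the minus strand. At 2 weeks it had 65.0, 85.2, 136, 256 and 79.7 TPM in CAC, 53.1, 52.6, 56.2, 47.3 and 45.6 TPM in NCAC and 44.4, 60.7, 52.6, 42.9 and 68.7 TPM in Con. No CAC library overlapped NCAC, and 1 lay within the Con range. The log2 difference was 1.03 against Con (SE 0.250, adjusted p = 0.0492) and 1.09 against NCAC (adjusted p = 0.0163). At 8 weeks Serping1 averaged 223 ± 95.0 TPM in CAC (SD, n = 7), 54.9 ± 12.5 TPM in NCAC and 53.8 ± 11.0 TPM in Con (SD, n = 5 each), a log2 difference of 1.92 from Con (adjusted p = 4.28e-09). Over all weeks 21 of the 22 CAC libraries had more Serping1 than the highest of the 40 NCAC and Con libraries, 74.3 TPM. For C1qa this held for 11 of 22.

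Ranges without overlap were as frequent as follows. Every CAC library lay above every Con library for 2, 8, 8 and 5 of the 9 genes at 2, 4, 6 and 8 weeks, against 5.01%, 15.6%, 28.7% and 25.7% of all tested genes. Against NCAC this held for 3, 8, 9 and 9 of the 9 genes, beside 9.27%, 13.4%, 39.8% and 24.5%. The exceptions at 8 weeks were C1qa, C1qb, C1qc and Cfb, for each of which Con replicate 1 reached into the CAC range.

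The time course within CAC was not sharp. Mean levels at 8 weeks were the highest of the 4 weeks for all 9 genes, with C3 at 67.7 ± 57.5, 85.6 ± 54.9, 186 ± 57.3 (SD, n = 5 each) and 227 ± 107 TPM (SD, n = 7) at 2, 4, 6 and 8 weeks. Ranges of neighbouring weeks overlapped in all 27 of the 27 pairs of gene and neighbouring weeks in CAC. The same held for 27 of 27 pairs in NCAC and in Con, so this overlap is not particular to CAC. The share over all tested genes was not taken. An F test of limma on whether the difference between CAC and Con changed over the weeks called 0 of the 9 genes, against 12.1% of all tested genes. At an unadjusted p under 0.05 it passed 1 of the 9, C3, and 3961 of all 12364 genes; the adjusted p of C3 by limma was 0.056. The others had adjusted p up to 0.889, which does not show that their differences were equal at all weeks. Weighting each library by its quality (array weights) raised the count to 6. The share of all tested genes called in that fit is not given here, so the 6 cannot be read against it.

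At 2 weeks the calls depended on single libraries. CAC replicate 4 was the highest library for 9 of 9 genes, with a summed 970 TPM over the 9 genes, and replicate 3 had 438 TPM, against 196, 242 and 223 TPM in the other CAC libraries. The highest NCAC library of that week had 177 TPM and the highest Con library 218 TPM. Macrophage markers summed to 383 TPM in replicate 4, 132 TPM in replicate 3 and 84.7 to 95.7 TPM in the other CAC libraries. Without replicate 3, or without replicate 4, no complement gene was called against Con or NCAC. The calls over all tested genes, in either direction, then fell too, to 7 and 10 against Con and to 24 and 14 against NCAC. With all libraries they were 33 higher and 2 lower against Con, and 143 higher and 2 lower against NCAC. The log2 difference of C4b from Con was 1.79 without replicate 3 and 1.54 without replicate 4, against 2.00 with all libraries, and that of Serping1 was 0.95 and 0.72, against 1.03. Against Con, 6 complement genes were called when CAC replicate 1 was dropped and 4 when CAC replicate 5 was. Dropping any one of Con replicates 1 to 4 gave 1. Over all tested genes those fits called 114, 70 and 16 to 27. Against NCAC, dropping CAC replicate 1 gave 5 complement genes, dropping CAC replicate 2 gave 6 and dropping NCAC replicate 5 gave 1. Over all tested genes those fits called 257, 417 and 41. A fit of the compared groups alone called none of the 9 genes, with the same differences of 2.00 and 1.03 from Con for C4b and Serping1. Hepatocyte markers summed to 1.02 TPM in CAC replicate 4 and 55.7 TPM in replicate 3.

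At later weeks some libraries were also lowest for all of the 9 genes, or differed in the sum of these genes. CAC replicate 4 of 6 weeks was the lowest of its group for 9 of 9 genes, and NCAC replicate 3 of 8 weeks likewise for 9 of 9. In CAC at 8 weeks the summed TPM of the 9 genes was 424, 529 and 526 in replicates 1, 3 and 6, and 1170, 1350, 1070 and 1270 in replicates 2, 4, 5 and 7. The counts of 9 genes at 6 and 8 weeks, against Con and against NCAC, held with each library left out in turn.

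No complement gene was called between NCAC and Con. The test of limma called 0 of the 9 genes at 2, 4, 6 and 8 weeks and over the 4 weeks together, and 0% of all genes in each. At an unadjusted p under 0.05 it passed 0 of the 9 in each comparison, while 471, 224, 909, 139 and 545 of all genes passed. Over the 4 weeks the log2 difference between NCAC and Con lay between -0.23 for C1s1 (SE 0.158) and 0.057 for C1qc (SE 0.181). By week, 4, 9, 0 and 1 of the 9 differences were above 0 at 2, 4, 6 and 8 weeks, with medians of -0.043, 0.46, -0.18 and -0.34, against -0.04, -0.0044, -0.097 and -0.017 over all tested genes. The F test over weeks for NCAC called 0 of the 9 genes and 0% of all genes. The largest single difference was 0.80 for C4b at 4 weeks, when NCAC had 3.13, 4.21, 5.70, 10.9 and 9.39 TPM and Con had 3.36, 4.54, 2.04, 2.38 and 3.42 TPM.

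The liver makes most plasma complement, so liver markers were examined in the muscle. Of 6 hepatocyte markers 5 were tested, and 0 were called between CAC and Con at any week, also at an unadjusted p under 0.05; the median of Fgb over the libraries was 0 TPM. Summed, they had 0.596 to 18.9 TPM in CAC, 0 to 0.610 TPM in NCAC and 0.266 to 0.574 TPM in Con at 8 weeks. In NCAC at 4 weeks they reached 327 TPM in replicate 3. Its C3 of 31.1 TPM was the highest of the group (19.4 to 31.1 TPM), and its Serping1 was 48.7 TPM (group 45.6 to 69.8 TPM). Against NCAC at that week 5 of 5 hepatocyte markers were lower in CAC, as were 197 of all 12364 tested genes. Among the other cell types at 8 weeks, when 65.3% of all tested genes were called higher and 5.55% lower, CAC was higher than Con for 5 of 10 markers of fibro-adipogenic progenitors, the connective tissue cells of muscle, for 4 of 5 endothelial markers with 1 lower, for 3 of 4 neutrophil markers, for 2 of 5 adipocyte markers and for 1 of 4 satellite cell markers. Of 6 muscle fibre markers 1 was higher and 2 were lower. The lymphocyte and melanocyte lists had no gene that passed the filter, at no more than 4.71 and 1.59 summed TPM in any library. Their part in the complement values was not tested.

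The rest of the complement system was less uniform. A further 50 complement genes were listed by role; 26 were tested, 22 were below the filter and 2 were not in the table. Against Con 0, 13, 19 and 23 of the 26 were higher in CAC at 2, 4, 6 and 8 weeks, beside 0.267%, 23%, 51.8% and 65.3% of all tested genes, and 1 was lower, at 8 weeks. At 2 weeks 14 of the 26 passed an unadjusted p under 0.05 in either direction, as did 13.3% of all tested genes. Among the 14, Cd59b was lower in CAC (log2 difference -1.49, unadjusted p = 0.000894 by limma). Their median log2 difference at 8 weeks was 0.87, against 1.92 for the 9 genes and 0.36 for all tested genes. After rescaling 14 of the 26 were higher and 2 lower at 8 weeks, beside 22.9% of all tested genes called higher, so the count depends on the scale.

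Among the classical and lectin genes, C2, the substrate that C1s cleaves beside C4, averaged 4.84 ± 1.77 TPM in CAC (SD, n = 7), 1.74 ± 0.846 TPM in NCAC and 1.92 ± 0.672 TPM in Con (SD, n = 5 each) at 8 weeks. C1rb and C1rl, relatives of C1ra, had log2 differences from Con of 1.46 and 0.55, and C1rb was not called after rescaling (adjusted p = 0.116). Fcna, a ficolin of macrophages that starts the lectin pathway, averaged 21.5 ± 12.7 TPM in CAC, 3.60 ± 2.01 TPM in NCAC and 3.18 ± 1.47 TPM in Con, a log2 difference of 2.27 from Con (adjusted p = 9.35e-07). The collectin genes Colec12 and Colec11 and the protease gene Masp1 had 0.97, 0.52 and 0.68, of which Colec11 was lost after rescaling.

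In the alternative and terminal pathways, Cfd, the adipocyte protease that activates factor B, averaged 1034 ± 383 TPM in CAC, 320 ± 168 TPM in NCAC and 391 ± 244 TPM in Con at 8 weeks (log2 difference from Con 1.45, adjusted p = 0.00113). Cfp, the stabilising factor properdin, had a log2 difference of 0.78, which was not called after rescaling. C7 and C6, parts of the membrane attack complex, averaged 6.72 ± 4.17 and 3.72 ± 2.70 TPM in CAC, 0.734 ± 0.271 and 0.0858 ± 0.0712 TPM in NCAC and 0.615 ± 0.180 and 0.172 ± 0.282 TPM in Con. Their log2 differences from Con were 2.04 and 1.82, and values this close to 0 make the size of such differences depend on the added 1 TPM. C8g went the other way at -0.34 (adjusted p = 0.00239). The remaining parts of the complex, Hc, C8a, C8b and C9, were below the filter.

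Regulators and receptors differed among themselves. Clu and Vtn, which block the terminal complex, had log2 differences from Con of 1.90 and 1.27 in CAC at 8 weeks. The membrane regulators Cd59a, Cd55 and Cr1l differed less. Cd59a had 0.40 and was called, but stood at -0.0072 after rescaling. Cd55 had 0.073 (adjusted p = 0.623 by limma) and was called lower at -0.33 after rescaling (adjusted p = 0.0346). Cr1l averaged 13.2 ± 1.26 TPM in CAC (SD, n = 7) and 10.5 ± 0.71 TPM in Con (SD, n = 5), and stood at -0.075 after rescaling. Among receptors, Vsig4, the C3b receptor of resident macrophages, had 2.02, C5ar1, a receptor for C5a, 1.11, Itgb2, the shared chain of complement receptors 3 and 4, 0.58, and C3ar1, the receptor for C3a, 0.55. Itgb2 and C3ar1 were not called after rescaling.

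**Figure D5:**
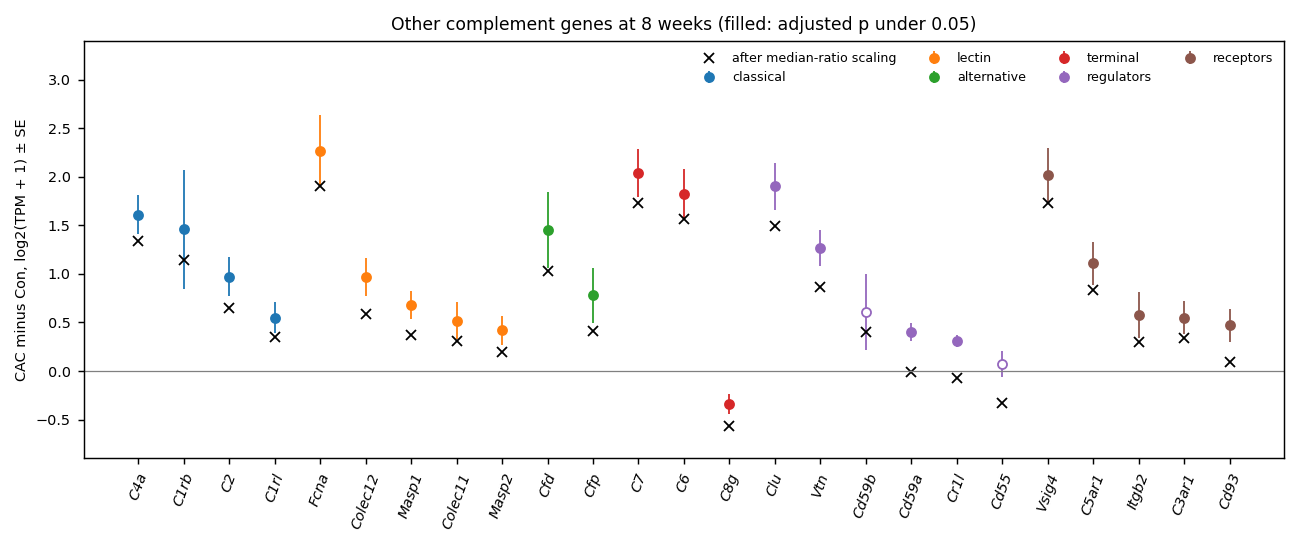
Difference of mean log2(TPM + 1) between CAC and Con at 8 weeks for the other tested complement genes, of which 1 is not shown (points with SE bars, coloured by role, filled where the adjusted p is under 0.05); crosses give the difference after median-ratio scaling. Fcna, C7 and Vsig4 are highest at 2.27, 2.04 and 2.02, and the crosses of C8g, Cd59a, Cr1l and Cd55 lie below 0.

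The genes with group means most like those of the remaining members differed by gene. C4b and Cfb shared Wfdc17 and Ifitm3 among their 3 nearest genes, with Pearson r of 0.994 to 0.997 over the 12 group means. C3 was nearest to Htra3, Ttc9c and Medag (r of 0.995 to 0.996), C1ra to Il1r1, Galc and Pros1 (0.993 to 0.996), Serping1 to Tmem176b, B4galt1 and Tnfrsf1a (0.996 to 0.997) and C1s1 to Mob1a, Elavl1 and Prmt2 (0.986 to 0.989). The libraries behind these means are shared by all genes, and the values are descriptions without a test.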

How the data were processed

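Poly(A)-selected, stranded libraries of gastrocnemius RNA were sequenced on an Illumina NovaSeq, per the labels' protocols. The authors' deposited table holds TPM values for 47643 gene symbols in 62 libraries, and the genome build is mm10, per the submitters' processing notes. Which annotation, aligner and counter were used is not given in the sources used here. Groups came from each library's description; a treatment tag that is the same in every library was not used.

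Genes with at least 1 TPM in at least 5 libraries (12364) were analysed as log2(TPM + 1) in 1 model with 12 group means and a variance trend (limma 3.58.1, R 4.3.3). Tests were two-sided, adjusted p (Benjamini-Hochberg) covers all tested genes, with a threshold of 0.05. The F tests compared the differences from Con across the weeks. The model was tested on simulated data. Depth and reads were estimated from the TPM steps and GENCODE exon lengths, matched for 45090 symbols, and describe counting error only; 78.1% to 79.8% of low values per library came within 0.02 of a whole number. No 2 libraries were identical.

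The 9 genes, the other complement genes and the cell type lists were chosen with earlier results of these data known. Named genes were all 9 members, up to 4 called genes of each complement role by size of the 8-week difference, and C4a. For each member the 3 genes outside the 9 with the most similar group means were also named, clone names passed over. Cr1l, Cd55, Cd59b, Adgre1, Cd163 and the untested genes were named after their values were seen. The alternatives tried were 0.1 in place of the added 1 TPM, no filter, a filter at 5 TPM, median-ratio scaling, mitochondrial genes left out, array weights, a replicate block, both groups fitted alone and each library left out. Promoter sequences are from RefSeq (GRCm38.p6), of which 5 of the 9 genes had one. The result of 1 of the other complement genes is not reported here, although the counts over that list include it.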

Additional observations from a re-analysis of the deposited data

Results flagged for a closer look

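Within each group, the highest and lowest library of each of the 9 genes was set against the rest by Dixon's test. In 108 groups of values, 14 held a library that stood apart. Chance gives about 1 in 20 for independent groups, but the 9 genes share their libraries, and the 14 come from 6 libraries.

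CAC replicate 4 of 2 weeks stood apart as the highest library for C1qa (167 TPM, next 65.2), C1qb (119 TPM, next 41.2), C1qc (73.3 TPM, next 27.4) and C1ra (46.4 TPM, next 16.0). CAC replicate 2 of 4 weeks was highest for C3 (181 TPM, next 82.9) and C4b (79.4 TPM, next 32.5). NCAC replicate 3 of 8 weeks was lowest for C1qa (8.72 TPM, next 27.4), C1qb (3.76 TPM, next 16.7) and C1qc (3.25 TPM, next 11.8). Con replicate 1 of 8 weeks was highest for C1qb (44.5 TPM, next 20.7), C1qc (27.4 TPM, next 13.2) and Cfb (9.95 TPM, next 4.36). NCAC replicate 1 was highest for C1qa at 6 weeks (38.2 TPM, next 22.1) and for C4b at 2 weeks (5.73 TPM, next 3.74). In the libraries named for the C1q genes at 2 and 8 weeks the macrophage markers summed to 383 TPM (CAC replicate 4), 29.7 TPM (NCAC replicate 3) and 178 TPM (Con replicate 1), each at the same end of its group. The part of this in the values was not tested.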

How the results depend on the processing

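The counts of 9 called genes against Con and against NCAC at 6 and 8 weeks, and the counts of 0 for NCAC against Con, were the same under every alternative run. Against Con at 4 weeks 8 or 9 genes were called throughout. Against Con at 2 weeks the count of 2 became 1 without a filter, 1 with median-ratio scaling, 6 with array weights, 0 with both groups fitted alone and 0 to 6 with a library left out. Against NCAC at 2 weeks the count of 3 became 2 without a filter, with median-ratio scaling and without mitochondrial genes, 6 with array weights, 0 with both groups fitted alone and 0 to 6 with a library left out. Against NCAC at 4 weeks the count of 9 became 7 without a filter, 3 with median-ratio scaling, 4 without mitochondrial genes, 8 with both groups fitted alone and 2 to 9 with a library left out. For the change of CAC against Con over the weeks, the count of 0 became 1 with the filter at 5 TPM, 6 with array weights and 0 to 3 with a library left out. Over all tested genes the fits with a library left out called 7 to 114 against Con and 14 to 417 against NCAC at 2 weeks. Against NCAC at 4 weeks they called 274 to 3313. Counts over all genes are not given here for the other alternatives, except median-ratio scaling, or for any alternative on the change over weeks. The cause of these shifts was not tested. Of 666 single-gene values of CAC against Con under an alternative, 634 kept direction and call, 22 lost the call, 10 gained one and 0 changed sign; all that lost or gained a call were at 2 and 4 weeks. With a replicate block the counts were 2 against Con and 3 against NCAC at 2 weeks, as without it. The numbers share only a label: 16 of 60 same-numbered pairs had deviations correlated above 0.1, in 0 of 12 comparisons all of them, and in 12 of 60 pairs a library correlated best with its own number.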
